A study of Mus musculus with 48 samples.

Results

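The comparison rests on 6 libraries, 3 of the nuclear and 3 of the cytosolic fraction of E14TG2a, a mouse embryonic stem cell line, taken 120 min after transcription was blocked. They belong to a series of 48 libraries of polyadenylated RNA, made from whole-cell extract, nucleus, cytosol and membrane fraction at 30, 60, 120 and 240 min. All cultures received 1 µM flavopiridol, an inhibitor of the kinase CDK9, without which RNA polymerase II stays paused near promoters. All were grown on gelatin in serum with LIF and with CHIR99021 and PD0325901, inhibitors of GSK3 and MEK that keep these cells undifferentiated. The replicates were independently passaged cultures of 1 cell line. Digitonin released the cytosolic fraction, a stronger detergent released the membrane fraction, and the insoluble pellet, passed over a sucrose cushion, was the nuclear fraction, so that the latter can hold insoluble material besides nuclei. Values are ratios, each gene in a fraction being divided by what that fraction held of it at 0 min, and the 0 min libraries were not analysed here. The genes described are the 12929 that were listed in all 6 libraries, of 21182 listed in at least 1 of them and 23862 in the series. Of the 8253 listed in part, 1486 were listed in the 3 nuclear and in no cytosolic library, with a median of 3.33 reads, and 318 in the 3 cytosolic and in no nuclear library, with a median of 2.67 reads.

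An mRNA leaves the nucleus after capping, splicing and polyadenylation, and it is then translated and finally degraded in the cytoplasm. Polyadenylated RNA in the nuclear fraction comprises transcripts that wait for splicing or export, transcripts that the nuclear exosome removes, and noncoding RNAs that stay there. Flavopiridol keeps paused RNA polymerase II from moving on, whereas polymerases already within a gene can still finish their transcripts, which takes longest in long genes, and the mitochondrial polymerase is not its target. Beyond such completion, each pool of nuclear-encoded RNA loses transcripts by decay or exchanges them with another pool. The comparison asks which transcripts were held or lost in the nucleus while the cytosolic pool ran down. Because each fraction is set against its own start, a difference between fractions is a difference in the course since 0 min and not in the amount present.

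The deposited ratios of a gene stand to each other as whole numbers do. The reads behind them could thus be recovered, gene by gene, up to a factor common to all libraries of a fraction. On that scale the nuclear libraries held 5328867 to 5475954 reads and the cytosolic libraries 5914746 to 6230519. At 0 min, in reads brought to equal depth (rpm, with the depth of the 120 min libraries, since that of 0 min is unknown), Malat1 was 19.6-fold and Neat1 18.6-fold higher in the nucleus, whereas Actb was 3.38-fold and Pou5f1 2.88-fold higher in the cytosol. Of 8 stem cell markers 7 were listed in all 6 libraries, with summed reads of 29518 to 30731 in the nucleus and 47439 to 49400 in the cytosol. Esrrb was the exception. Marker sums of other cells were far lower, with 4 to 8 and 2 to 6 reads for primitive endoderm, 23 to 32 and 47 to 59 for mesendoderm, 201 to 226 and 340 to 360 for neural cells, and 5 to 9 and 3 to 6 for fibroblasts. Gata4, Sox17, Pdgfra, Pax6, Col1a2, Col3a1 and Lum were not listed. Transcripts of mitochondrial DNA made up 4.57%, 2.68% and 2.63% of nuclear reads in replicates 1, 2 and 3 and 0.126% to 0.165% of cytosolic reads, so that nuclear replicate 1 stood apart from the others in this share.

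The median gene of a library had declined further in the nucleus, where the library medians averaged -0.99 ± 0.08 (SD, n = 3) on the log2 scale, than in the cytosol, where they averaged -0.58 ± 0.05. In limma, 1786 genes were higher in the nucleus than in the cytosol relative to 0 min (13.8% of those tested, adjusted p under 0.05) and 4099 were lower (31.7%). At an unadjusted p under 0.05 there were 6956. The difference exceeded 1 log2 unit in 649 and 2399 genes. The 3 nuclear values lay above the 3 cytosolic ones for 2491 genes (19.3%) and below them for 5047 (39%). The median difference over all genes was -0.26. This split rests on the reference that is held constant. With libraries centred on the median gene it became 30% higher and 19.3% lower, with a median difference of 0.15, and with libraries scaled on cytosolic ribosomal protein genes it became 22.9% and 21.6%, with a median of 0.02. With libraries scaled on transcripts of mitochondrial DNA it became 0.224% and 82.1%, with a median of -1.74. Differences below are those under the authors' scaling, and a difference near 0 is therefore read beside the median of -0.26.

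**Figure D1:**
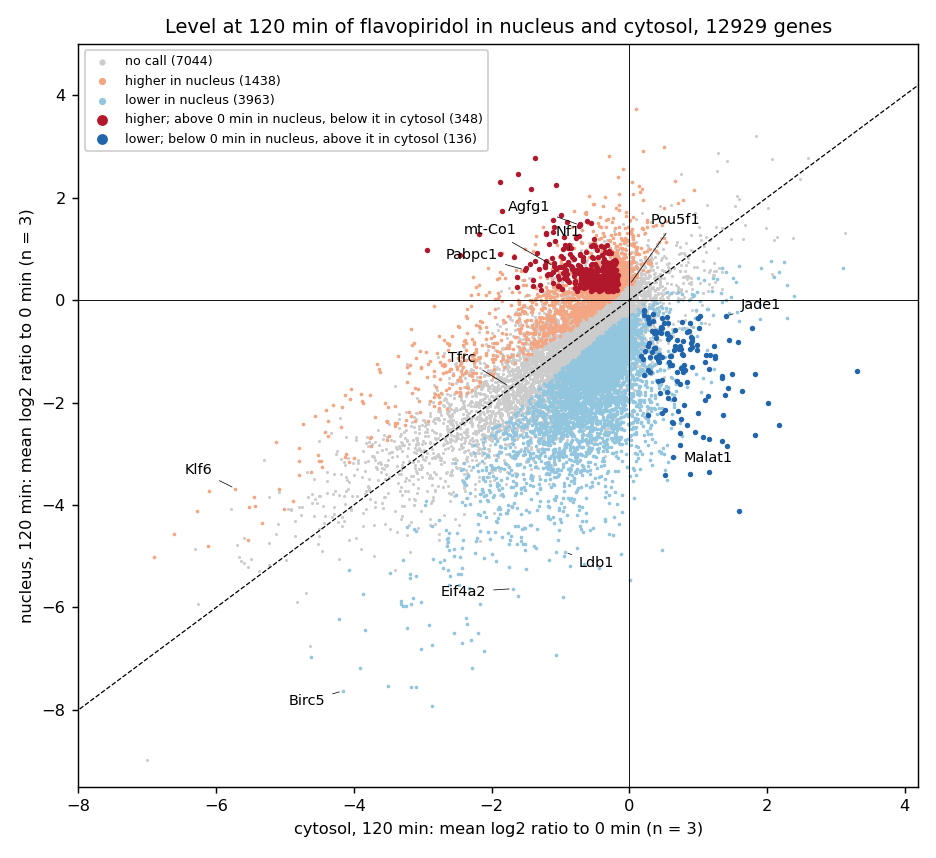
Mean log2 ratio to 0 min at 120 min in the cytosol (x axis) and in the nucleus (y axis), 1 point for each of 12929 genes (n = 3 libraries for each mean). The dashed line marks equal ratios, colours give the limma calls, and the dark points mark the 348 genes above 0 min in the nucleus and below it in the cytosol and the 136 genes with the reverse.

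Many calls were made among genes that declined on both sides. Both fractions were below 0 min for 6845 genes, and of these 493 were higher and 2468 lower in the nucleus. A smaller set had opposite signs. For 348 genes (2.69%) the nuclear mean was above and the cytosolic mean below the 0 min level, each of the 3 tests passing, and for 136 genes (1.05%) it was the other way round. Both fractions were above 0 min for 98 genes. Leaving out 1 replicate lowered all 4 counts, to between 681 (without replicate 2) and 976 higher genes, 2381 (without replicate 3) and 2801 lower genes, 140 (without replicate 2) and 205 genes that built up, and 90 (without replicate 2) and 114 genes with the reverse. Genes with at least 100 recovered reads at the 0 min level in both fractions, called well covered here, numbered 5887. Among them 1097 (18.6%) were higher and 2127 (36.1%) lower, and 234 of the 348 genes but 21 of the 136 were well covered. The error of the 0 min level is common to the 3 libraries of a fraction and is not in these tests, and it weighs most on genes with few reads.

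Base composition went with the difference, and its range can be seen in the coding sequence itself. The middle 90 bases of the longest coding exon are printed for the 2 genes with the lowest GC content among the 12 well covered genes with the largest positive difference, and for the 2 with the highest GC content among the 12 with the largest negative difference. All sequences are from GRCm38, read on the coding strand, with G and C in capitals, and 3 of the 4 genes encode zinc finger proteins. Zfp953 (chr13:67343272-67343361, minus strand, 40% GC) and Zfp960 (chr17:17087909-17087998, plus strand, 33.3%) were higher in the nucleus. Zbtb48 (chr4:152026678-152026767, minus strand, 58.9%) and Pidd1 (chr7:141442313-141442402, minus strand, 63.3%) were lower.
Zfp953: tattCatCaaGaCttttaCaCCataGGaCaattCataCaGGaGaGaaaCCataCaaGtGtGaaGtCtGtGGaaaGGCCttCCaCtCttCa
Zfp960: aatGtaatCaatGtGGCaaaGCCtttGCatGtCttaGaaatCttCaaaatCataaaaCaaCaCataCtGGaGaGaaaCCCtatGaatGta
Zbtb48: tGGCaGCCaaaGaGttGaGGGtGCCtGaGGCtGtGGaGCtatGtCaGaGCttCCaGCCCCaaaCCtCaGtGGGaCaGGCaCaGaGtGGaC
Pidd1: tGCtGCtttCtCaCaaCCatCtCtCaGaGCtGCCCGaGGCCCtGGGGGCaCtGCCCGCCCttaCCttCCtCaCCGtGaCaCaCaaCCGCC

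These 4 genes were picked for their extreme base composition. The transcripts of the 12 genes on either side ranged from 36.9% to 54% and from 42.5% to 58.2% GC, and so overlapped, and all well covered genes are described next. When 5883 of them were put into 5 groups by the GC content of their transcript, the median difference was 0.20 in the lowest group (median GC 41.3%), 0.00 in the second, -0.18 in the third, -0.32 in the fourth and -0.60 in the highest (57.5%). The nucleus carried most of it, since its median log2 ratio went from -0.61 to -1.35 between these groups, whereas that of the cytosol went from -0.68 to -0.54. In the lowest group 35.7% of genes were called higher and 15.7% lower, and in the highest 5.27% and 58.9%. Spearman's rho between GC content and the difference was -0.394 over these genes, -0.240 for the nuclear ratio and 0.103 for the cytosolic ratio. These are descriptions across genes of the same 6 libraries, and genes are not independent replicates.

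Gene length, which includes introns, went the other way. The median difference was -0.23 in the shortest 1177 genes (median 3.90 kb) and -0.37 in the next group, and it reached 0.17 in the longest 1177 (median 95.1 kb), where the nuclear median ratio was -0.37 (rho 0.215). Long genes are also poorer in GC, but within genes over 35.7 kb the median difference still went from 0.23 at low GC to -0.31 at high GC, and within genes under 12.8 kb from 0.05 to -0.46. The length of the 3′ untranslated region had a rho of 0.189 with the difference, 0.016 with the nuclear ratio and -0.207 with the cytosolic ratio, over the 90.9% of well covered genes that have one annotated. Number of exons (rho -0.060) and the largest mean hydropathy over 19 residues of the protein, a measure of membrane-spanning segments (rho -0.020), bore little relation to the difference. Number of exons did go with the ratio of each fraction, with a rho of 0.192 in the nucleus and 0.228 in the cytosol.

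**Figure D2:**
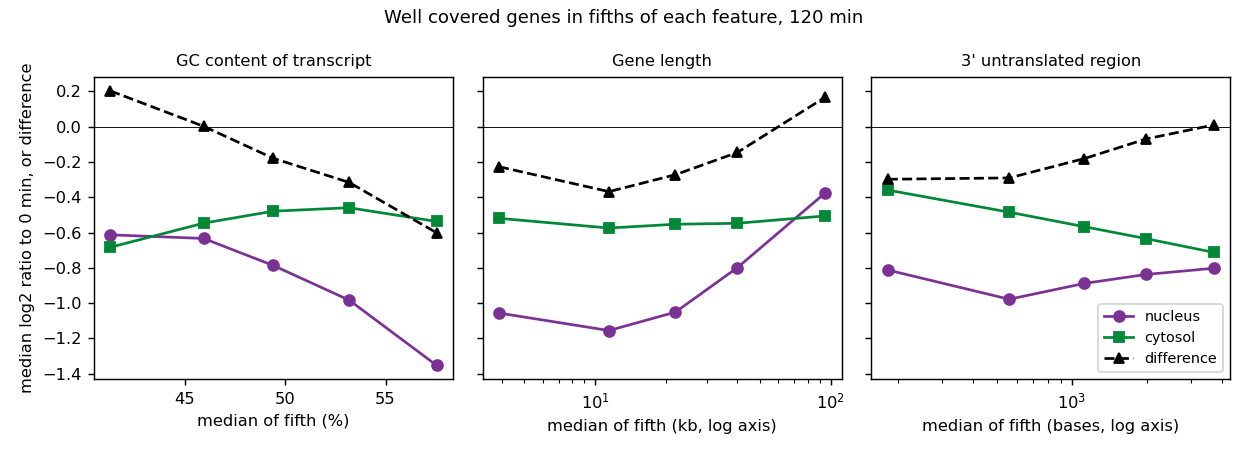
Median log2 ratio to 0 min in nucleus (circles) and cytosol (squares) and median difference (triangles) at 120 min, for well covered genes in 5 groups of equal size by GC content (%), gene length (kb, log axis) and 3′ untranslated region (bases, log axis). The nuclear line falls with GC content from -0.61 to -1.35 and climbs with gene length to -0.37, and the cytosolic line falls with the length of the 3′ untranslated region from -0.36 to -0.71.

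The genes that built up in the nucleus while their cytosolic level declined were mostly protein coding (294 of 348). Their median GC content was 45.7% against 50.1% for all genes, and their median length was 66.2 kb against 16.2 kb. At 0 min they had been 0.772 times as abundant in the nucleus as in the cytosol in rpm, the median of all genes being 1.41, although the same 0 min level divides the ratio and so ties these values together. Among well covered genes, Ppp2r5e (chr12:75450881-75596245), a regulatory subunit of protein phosphatase 2A, had the highest nuclear level. It gave 731, 577 and 641 reads in the nucleus, where its 0 min level corresponded to 229.7 reads, and 205, 196 and 205 reads in the cytosol, from 331. It thus stood at 282% of 0 min in the nucleus and 61.1% in the cytosol, a difference of 2.21 ± 0.13 log2 (SE, limma adjusted p = 0.000657). Agfg1 (chr1:82839483-82901182), an Arf GTPase-activating protein with phenylalanine-glycine repeats, was far better covered. Its nuclear reads were 3529, 2870 and 3122 from 1148, and its cytosolic reads 721, 555 and 683 from 1066. All nuclear libraries held more than at 0 min and all cytosolic libraries less, with a difference of 2.18 ± 0.15 (adjusted p = 0.000671).

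Ankrd17, an ankyrin repeat protein, and Bbx, an HMG-box protein, shared the pattern. Ankrd17 gave 328, 289 and 277 nuclear reads from 125 and 160, 137 and 140 cytosolic reads from 242. Bbx gave 1004, 944 and 993 from 431 and 386, 403 and 393 from 563. The groups did not overlap for either gene, and the differences were 1.98 ± 0.13 and 1.70 ± 0.09 (adjusted p = 0.000657 for both). Slc4a7, a sodium bicarbonate cotransporter, stood at 211% and 52.5% of 0 min, with a wider cytosolic spread of 117, 62 and 102 reads from 172 (difference 2.00 ± 0.26, adjusted p = 0.00245). Rbms1, a single-strand nucleic acid binding protein, stood at 207% and 75.1%. Nf1 (chr11:79339693-79581612), which encodes the Ras regulator neurofibromin, gave 913, 882 and 822 nuclear reads from 466 and 177, 176 and 162 cytosolic reads from 311, a difference of 1.76 ± 0.11 (adjusted p = 0.000657). With libraries scaled on mitochondrial transcripts its difference shrank to 0.28, and 2 genes in all had this pattern under that scaling.

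Some genes named for the highest nuclear level had few reads. Rfx3, a transcription factor of ciliated cells, gave 509, 444 and 389 nuclear reads from 141 but 51, 38 and 32 cytosolic reads from 78.4 (difference 2.65 ± 0.22). Babam2 had a 0 min level worth 5.90 nuclear reads and Hnrnpc one worth 8.49, so their levels of 293% and 250.4% rest on a poorly measured start. A poorly measured start also holds for Ripply3, with 3.22 reads, and for Tcf12, with 15.5 reads in the nucleus and 7 overlapping genes on its strand. Both were named for the size of their difference and did not have the build-up pattern. Their cytosolic levels, 76.5% and 115% of 0 min, were not different from 0 min by the test (limma adjusted p = 0.0815 and 0.431).

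Pabpc1 (chr15:36595661-36609668), the cytoplasmic poly(A)-binding protein, was the most abundant of the 12 well covered genes with the largest positive difference. Its nuclear reads were 49389, 44817 and 47436 from 31447 at 0 min, and its cytosolic reads 7535, 6767 and 7058 from 20220.0. It rose to 150.2% in one fraction and fell to 35.2% in the other, a 4.27-fold difference (2.09 ± 0.09 log2, adjusted p = 0.000657). In the membrane fraction its mean was 0.30 ± 0.17 (SD, n = 3) log2, and its nuclear level did not differ from that by the test (0.28, adjusted p = 0.154). Osbpl8, a lipid transfer protein at contacts of endoplasmic reticulum and plasma membrane, also rose in the nucleus, with 1161, 923 and 934 reads from 531, while its cytosolic reads were 162, 174 and 152 from 410.4 (difference 2.25 ± 0.14). Fam126b, of the hyccin family, and Lin52, a subunit of the DREAM complex that represses cell cycle genes, were at 109% and 111% of 0 min in the nucleus and at 21.8% and 24.4% in the cytosol. Their differences were 2.32 ± 0.13 and 2.19 ± 0.15 (adjusted p = 0.000657 and 0.000671).

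Other genes with large positive differences were far below 0 min on both sides. Pnrc1, a nuclear receptor coactivator, gave 60, 48 and 46 nuclear reads from 349.6 and 20, 16 and 20 cytosolic reads from 649. It had fallen to 14.6% and 2.86% of 0 min, a 5.10-fold difference (adjusted p = 0.00159). Trib1, a pseudokinase that recruits a ubiquitin ligase, fell to 5.76% and 1.29%, on 22, 14 and 13 nuclear and 4, 5 and 6 cytosolic reads, and its call was lost without replicate 2 (adjusted p = 0.0558). Zfp953, Zfp960, Zfp626 and Zfp729b, members of a zinc finger family with many similar copies between which reads may be split, were at 37.9%, 23.4%, 61.8% and 26.1% in the nucleus. In the cytosol they were at 8.15%, 5.54%, 14.7% and 6.03%, and their differences lay between 2.07 and 2.22.

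Negative differences reached larger sizes than positive ones. Ldb1 (chr19:46031570-46045214), an adaptor that links LIM-domain transcription factors, gave 56, 47 and 46 nuclear reads from 1500.0 and 97, 95 and 100 cytosolic reads from 187. It stood at 3.30% of 0 min in the nucleus and 52.1% in the cytosol, a 15.8-fold difference in favour of the cytosol (-3.98 ± 0.21 log2, adjusted p = 0.000657). Eif4a2 (chr16:23107444-23114136), an RNA helicase of translation initiation, went from 10178 to 221, 182 and 214 nuclear reads and from 331 to 87, 117 and 106 cytosolic reads, although 6 genes overlap it on its strand. The nuclear libraries lay far below the cytosolic ones in ratio, at 2.02% against 31% (difference -3.94 ± 0.24, adjusted p = 0.000657). Hnrnpa2b1, a nuclear RNA-binding protein, gave 132, 110 and 103 reads from 2579 in the nucleus and 163, 143 and 200 from 248 in the cytosol. Plpbp, which binds pyridoxal phosphate, gave 50, 37 and 48 from 1348 and 56, 65 and 83 from 140.5. The differences of these genes were -3.93 ± 0.23 and -3.85 ± 0.25 (adjusted p = 0.000657 for both).

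At 0 min these transcripts had been enriched in the nucleus, Ldb1 by 9.02-fold, Eif4a2 by 34.5-fold, Hnrnpa2b1 by 11.7-fold and Plpbp by 10.8-fold in rpm. The median of all well covered genes was 1.03. The same 0 min levels divide the ratios that ranked these genes, so the enrichment is not independent of the difference. Birc5, the survivin subunit of the chromosomal passenger complex, was nearly gone from the nucleus, at 0.506% with 8, 9 and 13 reads from 1936. In the cytosol it was at 5.60% with 9, 7 and 11 reads from 158. Eif4e2, a cap-binding protein, stood at 6.44% and 50.6%, Cox20, an assembly factor of cytochrome c oxidase, at 6.76% and 46.7%, and Btbd19 at 7.82% and 59.5%. Zbtb48, a telomere-binding zinc finger protein, stood at 6.18% and 44.1%, and Pidd1, a death-domain protein induced by p53, at 9.32% and 62.3%. The differences of these 5 genes lay between -2.97 and -2.74. Without the limit on reads the list was led by Slc3a2 (-4.69), whose cytosolic start was worth 6.76 reads, Hnrnpk (-4.34) and Snora65 (-4.32), a small nucleolar RNA that shares its position with a host gene. Hnrnpk and Rps9, both with near-identical copies elsewhere in the genome, gave 13, 11 and 15 and 10, 12 and 11 nuclear reads, and their counts are uncertain.

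**Figure D3:**
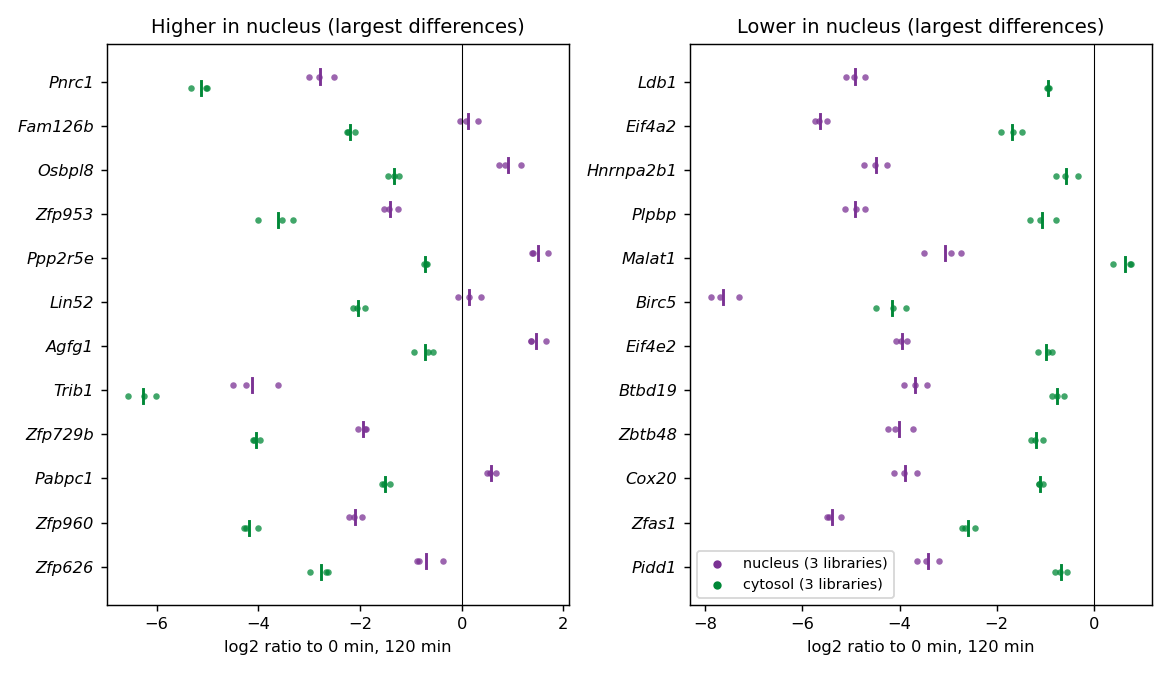
Log2 ratio to 0 min (x axis) in each nuclear and cytosolic library at 120 min for the 12 well covered genes with the largest positive (left) and negative (right) differences. Points are libraries and bars are group means (n = 3). In each gene shown the fractions do not overlap, and Ldb1 lies near -4.92 in the nucleus and -0.94 in the cytosol.

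The reverse pattern, a nuclear level below and a cytosolic level above 0 min, was found for 136 genes, of which 72 were protein coding. They had been 6.02-fold more abundant in the nucleus at 0 min at the median, against 1.41 for all genes, a value again tied to the ratios by their divisor. Their median reads were 27.7 in the nucleus and 18.8 in the cytosol. The best measured was Malat1 (chr19:5795690-5802672), a long noncoding RNA of nuclear speckles. It gave 3278, 3712 and 2429 reads in the nucleus, from 25828, and 2463, 2513 and 1974 reads in the cytosol, from 1479. It had thus fallen to 12% in the nucleus and risen to 156% in the cytosol, a 13-fold difference (-3.70 ± 0.23 log2, adjusted p = 0.000657). In the membrane fraction its mean log2 ratio was 0.55 ± 0.06 (SD, n = 3). In whole-cell extract it was 0.36 ± 0.18, above 0 min, although Malat1 had started 19.6-fold higher in the nucleus than in the cytosol. The nuclear ratio was thus not matched by a loss in whole cells, and the reason was not tested. Neat1, the scaffold of paraspeckles, gave 831, 796 and 806 nuclear reads from 1008 and 134, 130 and 111 cytosolic reads from 60.8. A nuclear level of 80.5% of 0 min went with 205% in the cytosol (difference -1.35 ± 0.12, limma adjusted p = 0.00107). Its mean log2 ratio was 1.07 ± 0.18 (SD, n = 3) in whole-cell extract and 1.20 ± 0.15 in the membrane fraction. Here too the whole cell did not share the nuclear decline, and the reason was not tested. Kcnq1ot1 (-2.18) and Meg3 (-0.93), noncoding RNAs of imprinted loci, had the same pattern.

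Jade1 (chr3:41555731-41616864), which encodes a scaffold of a histone acetyltransferase complex, had the highest cytosolic level among the well covered genes of this pattern. Its nuclear reads were 396, 457 and 435 from 533 and its cytosolic reads 479, 472 and 508 from 184, at 80.5% and 265% of 0 min (difference -1.72 ± 0.12, adjusted p = 0.000657). Tmem245, a membrane protein, gave 5407, 4301 and 4792 nuclear reads from 6135 and 1001, 927 and 1029 cytosolic reads from 492, and 3 genes overlap it on its strand. The cytosolic libraries of both genes all lay above the start and the nuclear ones below it. Nomo1, a protein of the endoplasmic reticulum membrane, was at 66.3% and 158%, Snhg11, a host of small nucleolar RNAs, at 59.3% and 147%, and Morc2a, an ATPase that acts with a silencing complex, at 65.6% and 129.9%. Glt8d1 and Il18bp, named by the rule for their cytosolic level, had cytosolic starts worth 4.90 and 15.1 reads.

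Gene lists by function are described next by their counts, beside 13.8% higher and 31.7% lower among all genes and a median of -0.26. Among well covered genes these values were 18.6%, 36.1% and -0.16. Over all genes the shares were 30% and 19.3% with centring, and 22.9% and 21.6% with ribosomal protein scaling. With centring, only the medians of the SR proteins, their kinases, the long noncoding RNAs, the hosts of small nucleolar RNAs and the solute carriers were below 0, and with the mitochondrial scaling the median of every list was. Centring also turned the balance of calls, so that higher genes outnumbered lower ones in every list except Hnrnp genes, SR proteins and their kinases, cytosolic ribosomal proteins, long noncoding RNAs, hosts of small nucleolar RNAs, solute carriers and Polycomb genes. Of 11 SR proteins, splicing factors rich in serine and arginine, 8 were lower and 0 higher (median -0.97), and of the 8 well covered ones 6 were lower and 0 higher (median -0.59). Srsf7 gave 3099, 3536 and 3608 nuclear reads from 9316 and 8518, 8060 and 7849 cytosolic reads from 8976, at 36.6% and 90.7% of 0 min (difference -1.31 ± 0.10, adjusted p = 0.000785). Srsf5 had a difference of -2.39 on fewer reads (158, 94 and 122 and 78, 57 and 59). Srsf3 (-0.11, adjusted p = 0.45) and Srsf9 (-0.02, adjusted p = 0.86) were not called. Of 9 kinases and cofactors that act on SR proteins, 5 were lower and 0 higher (median -0.62), with Clk3 at -1.40, Clk1 at -1.34 and Clk4 at -1.31. Under centring and under ribosomal protein scaling 3 of them were higher and 4 lower. The call of Clk4 was lost without replicate 2 (adjusted p = 0.128) or 3 (0.118), and that of Clk1 without replicate 2 (0.0791). Of 23 Hnrnp genes 11 were lower and 2 higher (median -0.33), and of the 13 well covered ones 5 were lower and 0 higher (median -0.27), beside 36.1% lower among all well covered genes. The SR median stayed below 0 under both centring and ribosomal protein scaling (-0.57 and -0.69), as did that of the kinases (-0.21 and -0.34), whereas the Hnrnp median moved to 0.08 and -0.05.

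Factors of export and nuclear decay included Nxf1, the main mRNA export receptor. Its nuclear reads were 577, 481 and 539 from 2927 and its cytosolic reads 74, 90 and 67 from 126 (difference -1.74 ± 0.17, adjusted p = 0.00123). Over the 35 genes 11 were lower and 2 higher (median -0.21), close to all genes. Of 13 factors of nonsense-mediated decay, 6 were lower and 5 higher. Smg5, an adaptor that recruits deadenylation, was the best covered of those lower, with 1617, 1457 and 1536 nuclear reads from 6392 and 2779, 2285 and 2576 cytosolic reads from 3448 (difference -1.61 ± 0.13, adjusted p = 0.000852). Of 30 factors of deadenylation, decapping and AU-rich element decay, 10 were higher and 7 lower (median 0.25). Cnot6l, a catalytic deadenylase, gave 400, 397 and 362 nuclear reads from 323 and 130, 131 and 143 cytosolic reads from 416 (difference 1.89 ± 0.11, adjusted p = 0.000657). Together with Parn, a poly(A)-specific ribonuclease (0.96), and Tnrc6b, a microRNA effector (0.69), it was above 0 min in the nucleus and below it in the cytosol. Zfp36l2, which binds AU-rich elements, was higher at 1.70 while at 43.9% and 13.5% of 0 min.

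Of 24 named long noncoding RNAs, 15 were lower and 1, Rmrp, was higher (median -0.94), and of the 12 well covered ones 8 were lower and 0 higher (median -0.82). Of 12 host genes of small nucleolar RNAs, 9 were lower and 1, Snhg14, was higher (median -2.53), with 6 and 1 among the 7 well covered hosts. Among all well covered genes 36.1% were lower and 18.6% higher. Zfas1, such a host, gave 41, 48 and 43 nuclear reads from 1834 and 35, 42 and 37 cytosolic reads from 229 (difference -2.79 ± 0.24, adjusted p = 0.000948). The hosts remained below 0 at the median under centring and ribosomal protein scaling (-2.12 and -2.24). By annotated type, the median difference was -0.24 for 9813 protein coding genes, -0.47 for 812 antisense transcripts, -0.64 for 452 lincRNAs, -0.73 for 237 processed transcripts, -0.25 for 42 microRNA genes and 0.23 for 905 processed pseudogenes. Among well covered genes it was -0.15 for protein coding genes, -0.39 for antisense transcripts, -0.29 for lincRNAs, -0.81 for processed transcripts and 0.20 for processed pseudogenes. Antisense transcripts share their positions with other genes, and the library kit keeps the strand. Whether reads of those genes entered the antisense values was not tested.

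Among transcription factors, of 253 numbered Zfp zinc finger genes, 63 were higher (24.9%) and 51 lower (20.2%), with a median of 0.26, and both fractions had lost most of their transcripts, with median log2 ratios of -2.25 and -2.35. Of 13 immediate early genes, 5 were higher and 1 lower (median 0.57). Klf6, a Krüppel-like factor, gave 59, 36 and 42 nuclear reads from 573 and 22, 23 and 18 cytosolic reads from 1102 (difference 2.04 ± 0.31, adjusted p = 0.00389). Of 19 pluripotency regulators, 3 were higher (Dppa3, Dppa5a and Nr5a2), 3 were lower (Zfp42, Dppa4 and Prdm14) and the others were not called, among them Pou5f1 (0.29, adjusted p = 0.0840) and Nanog (-0.30, adjusted p = 0.159). The call of Dppa4 was lost without replicate 2 (adjusted p = 0.0694) or 3 (0.103), that of Zfp42 without replicate 2 (0.0812) and that of Dppa3 without replicate 3 (0.0632). Of 24 genes of elongation control, 3 were higher and 7 lower, and Cdc73, of the Paf1 complex, and Cdk13, a kinase of RNA polymerase II, were above 0 min in the nucleus and below it in the cytosol (differences 1.17 and 1.04). Polycomb genes had 3 higher and 8 lower of 23, replication licensing genes 3 and 6 of 19, mitotic regulators 3 and 9 of 24, and replication-dependent histones 2 and 5 of 26.

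Of 34 proteasome subunits, 12 were higher and 3 lower, with a median of 0.19. The 3 lower ones, Psmc3, Psmd13 and Psmb10, had few reads. The call of Psmc3 was lost without replicate 1 (adjusted p = 0.0571) or 3 (0.0611), and that of Psmd13 without replicate 1 (0.0785). Among the 28 well covered subunits 11 were higher and 0 lower, beside 18.6% and 36.1% among all well covered genes. Psma1, Psma6, Psmd11 and Psmd14 were above 0 min in the nucleus and below it in the cytosol, with differences of 0.96, 0.88, 0.60 and 0.71. Cytosolic ribosomal protein genes had 1 higher and 28 lower of 66 (median -0.38), and their median was 0.03 with centring. Translation factors had 13 higher and 17 lower of 61, aminoacyl-tRNA synthetases 9 and 12 of 31, mitochondrial ribosomal proteins 6 and 19 of 66, and respiratory chain subunits 9 and 13 of 64. With centring these counts were 32 higher and 7 lower, 17 and 9, 29 and 7, and 35 and 3 in the same order. Among all genes 30% were higher and 19.3% lower with that scaling. Lars2, a mitochondrial leucyl-tRNA synthetase, gave 22102, 22863 and 19911 nuclear reads from 6578 and 12347, 18537 and 16796 cytosolic reads from 16250.0 (difference 1.77 ± 0.21, adjusted p = 0.00187). With libraries scaled on mitochondrial transcripts its difference was 0.28 (limma adjusted p = 0.616). Whether all reads assigned to Lars2 came from its own transcript was not tested.

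Genes for membrane and secreted proteins gave 67 lower and 11 higher of 164 solute carriers (median -0.53) and 31 and 11 of 114 Tmem genes (-0.39), and these medians were -0.13 and 0.01 with centring. Chaperones and sensors of the endoplasmic reticulum had 2 higher and 3 lower of 27, cholesterol genes 5 and 7 of 23, and adhesion receptors 2 and 2 of 18. Tfrc, the transferrin receptor, was not called. It gave 3418, 2696 and 3076 nuclear reads from 9865 and 409, 366 and 351 cytosolic reads from 1245, at 30.9% and 30.1% of 0 min (difference 0.04 ± 0.16, adjusted p = 0.854), and with centring its difference was 0.45 (adjusted p = 0.0388).

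Genes of mitochondrial DNA, whose polymerase flavopiridol does not target, had the highest list median, 1.42, with 7 of 10 higher and 0 lower. mt-Co1, a subunit of cytochrome c oxidase, gave 131520, 89378 and 92879 nuclear reads from 65336 and 3203, 2731 and 2456 cytosolic reads from 5903 (difference 1.74 ± 0.20, adjusted p = 0.00179). Nuclear replicate 1 held the most, and without replicate 1 the difference was 1.66 (adjusted p = 0.0196). The calls of mt-Nd2 and mt-Nd5 were kept without replicate 1 (1.39 and 1.38) and lost without replicate 2 (adjusted p = 0.111 and 0.0569), and that of mt-Nd2 also without replicate 3 (0.0798). These transcripts made up 2.63% to 4.57% of nuclear and at most 0.165% of cytosolic reads. The paper describes a slight contamination of its nuclear fraction with mitochondria. The part of such mitochondria in the differences given here was not tested. These genes are the reference of the mitochondrial scaling, under which 0 were higher, 1 was lower and their median was -0.06.

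To ask whether the difference is particular to 120 min, it was set against the difference at 60 and at 240 min with an interaction term. These comparisons share the 120 min libraries. Against 60 min, 65 genes had a larger (0.529%) and 69 a smaller difference at 120 min (0.562%) of 12282, and against 240 min 35 (0.297%) and 86 (0.731%) of 11769. At an unadjusted p under 0.05 there were 2066 and 2172. In fits without any 1 replicate, 0 or 1 gene was called in either comparison. The genes with the 120 min build-up had median differences of 0.42, 0.47, 0.96 and 1.11 at 30, 60, 120 and 240 min, and those with the reverse -0.77, -0.85, -1.58 and -1.54, while the median over all genes went from -0.24 to -0.34, -0.23 and -0.18. These medians are over genes listed in all 48 libraries, 327 with the build-up, 91 with the reverse and 10694 in all. Over the full 348 and 136 genes the 120 min medians were 0.99 and -1.82. The 120 min values chose these genes, and the values at the other times share the 0 min divisor with them. At 30 min nuclear replicate 1 stood apart, with a library median of -0.85 log2 against -0.10 and -0.31 in replicates 2 and 3. Differences at 30 min are therefore less certain.

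Nf1 was among the genes that changed between 60 and 120 min. Its difference was -0.04, 0.33, 1.76 and 1.73 at the 4 times, and the step from 60 to 120 min was 1.43 ± 0.19 (SE, limma adjusted p = 0.0173), whereas that against 240 min was 0.04 ± 0.17 (adjusted p = 0.936). Pabpc1 went through 0.60, 1.14, 2.09 and 2.19, with a step of 0.96 ± 0.12 (adjusted p = 0.0173). Ankrd17 stepped by 1.34 ± 0.19 and Bbx by 0.87 ± 0.14 (adjusted p = 0.018 and 0.0297). In contrast, Agfg1 went through 1.39, 1.64, 2.18 and 2.92, and neither step passed the test (adjusted p = 0.234 and 0.0636). Among short-lived transcripts, Pnrc1 (0.13, 0.18, 2.35 and 2.16), Trib1 (-0.44, -0.44, 2.15 and 2.20) and Klf6 (-0.09, 0.08, 2.04 and 2.51) had small differences up to 60 min and large ones from 120 min, with steps of 2.17 ± 0.28, 2.59 ± 0.45 and 1.97 ± 0.39. On the negative side Ldb1 went through -0.98, -2.58, -3.98 and -3.97, Tmem245 through 0.01, -0.40, -1.35 and -1.71 and Malat1 through -0.91, -3.12, -3.70 and -4.47. The step was called for Ldb1 (adjusted p = 0.0417) and Tmem245 (0.0385) and not for Malat1 (0.601). The nuclear 30 min mean of Malat1 had a wide spread (-0.59 ± 1.01, SD, n = 3).

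**Figure D4:**
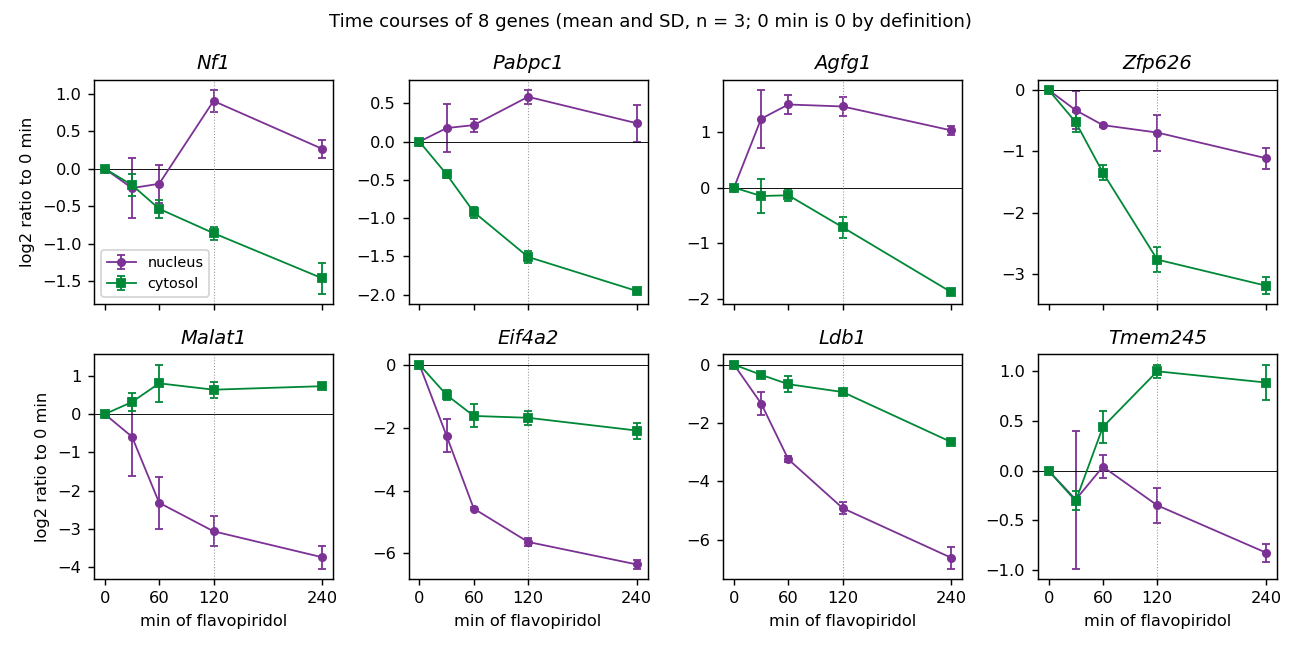
Mean log2 ratio to 0 min against min of flavopiridol for 8 genes in nucleus (circles) and cytosol (squares), with SD over 3 libraries. The dotted line marks 120 min, and 0 min is 0 by definition. The nuclear mean of Nf1 lies above 0 from 120 min while the cytosolic mean declines, and Malat1 has the opposite signs at 120 min, with -3.06 and 0.64.

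The nucleus was also set against the membrane fraction, which shares the nuclear libraries with the comparison above. Of 13316 genes 2346 were higher (17.6%) and 3961 lower (29.7%) in the nucleus. Agfg1 (1.88), Ppp2r5e (1.95) and Nf1 (1.39) differed from the membrane fraction too (adjusted p = 0.000808, 0.000818 and 0.000939), where they lay below 0 min at -0.42 ± 0.20, -0.46 ± 0.23 and -0.49 ± 0.13 (SD, n = 3). Tfrc was lower in the nucleus than in the membrane fraction (-1.47, adjusted p = 0.000975), having a membrane mean of -0.22 ± 0.14. Jade1 did not differ by the test between nucleus and membrane fraction (-0.05, adjusted p = 0.779), nor did Tmem245 (-0.16, adjusted p = 0.426), and their membrane means were -0.27 ± 0.14 and -0.19 ± 0.18. Malat1 was at 0.55 ± 0.06 in the membrane fraction, a difference of -3.61 from the nucleus (adjusted p = 0.000472).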

How the data were processed

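Polyadenylated RNA of 48 libraries was sequenced from strand-specific preparations. The authors aligned reads with STAR 2.7.6 to mm10 and counted them with RSEM 1.3.3, per the labels, scaled libraries on genes with long half-lives, and divided each gene by its 0 min level in the same fraction. The deposited column, headed as a normalized read count, is therefore a ratio to 0 min, and genes at 0 are not listed. Of 23862 gene identifiers, 23786 matched the GRCm38 annotation (GENCODE, a later release than the study's), which gave symbols, positions, transcript features and sequences. The protocol text gives 180 min for the last time, and the 240 min of the titles was used.

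Titles gave the groups and the replicate numbers. Genes listed in all 6 libraries were tested on log2 of the ratio, with no pseudocount, in R 4.3.3 with limma 3.58.1 (a linear model for each gene and moderated variances with a trend on the mean, two-sided). Adjustment was by Benjamini-Hochberg, with a threshold of 0.05. Each group mean was tested against 0 in the same fit, and interactions used 12 libraries. The SE of a difference is limma's. Ratios of a fraction stood in whole-number proportions, within 0.0001, for 99.99% of nuclear and 99.98% of cytosolic genes with values in 2 or more libraries. Reads were recovered from this for each gene, as the smallest whole numbers that fit. They served to describe depth, to filter and as the trend in an alternative fit. No count test was run on them, since the 0 min level is known as a quotient. Replicates vary as the libraries do, and counting error of the 0 min level is in no test.

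Candidates for naming had an adjusted p under 0.05, groups that do not overlap, an SD of at most 0.5 in each group, a listing in all 48 libraries and no predicted-gene or pseudogene symbol. Of these, the 12 largest differences on each side, the 6 highest nuclear means of the build-up and 6 highest cytosolic means of the reverse pattern were named. Up to 3 called members of each of 28 lists, by size of the difference, and Nf1 and Tfrc were named without the limits on SD, overlap and listing, so that some have few reads and a wide spread. The same rule among genes with at least 100 recovered reads at 0 min was added after seeing the data. Further list members are named in the text after their values were seen. The members and lists were chosen with earlier results of these data known. On simulated data with 200 changed genes among 12929, the test recovered 39% of changes of 1 log2 unit and 56% of changes of 2, with 6 calls among unchanged genes. Far more genes were called in the data, 1786 and 4099, which changes the Benjamini-Hochberg limit. The simulation also held no error of the 0 min level or of the scaling. Its rates therefore do not measure the power or the false calls of the comparison itself. Alternatives covered pseudocounts, listing filters, library scaling, the spread, trend, replicate block and each replicate left out. Filters on recovered reads and a trend on reads were also added after seeing the data.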

Additional observations from a re-analysis of the deposited data

Results flagged for a closer look

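Some differences between nucleus and cytosol at 120 min differed from those at 60 or 240 min by an interaction test. In limma 134 genes were called against 60 min and 121 against 240 min, and fits without any 1 replicate called 0 or 1 gene in either comparison. Among named genes the difference was larger at 120 than at 60 min, in log2 units, for Trib1 by 2.59 (adjusted p = 0.0333), Pnrc1 by 2.17 (0.0168), Zfp36l2 by 2.00 (0.0354), Klf6 by 1.97 (0.0435), Dppa3 by 1.74 (0.0258) and mt-Co1 by 1.67 (0.0311). It was also larger for Nf1 by 1.43 (0.0173), Ankrd17 by 1.34 (0.018), Zfp626 by 1.29 (0.0385), Pabpc1 by 0.96 (0.0173) and Bbx by 0.87 (0.0297). The change was negative for Ldb1 (-1.41, adjusted p = 0.0417), Hnrnpa2b1 (-1.38, 0.041), Btbd19 (-1.26, 0.0389) and Tmem245 (-0.95, 0.0385). Against 240 min it was called for Tars2, at -3.70 (adjusted p = 0.0247), on 3, 5 and 6 cytosolic reads at 120 min. Dppa3 had 9 to 15 nuclear reads.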

How the results depend on the processing

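Where values moved, the cause was not tested beyond what each alternative changes by construction. Counts by scaling, centred on the median gene, scaled on mitochondrial transcripts and scaled on ribosomal protein genes, were 3876, 29 and 2957 for genes higher in the nucleus. Lower genes numbered 2495 with centring and 10614 with the mitochondrial scaling, build-up genes 2 (mitochondrial) and 641 (ribosomal protein), and reverse genes 415 (centred) and 616 (mitochondrial). The median difference was 0.149, -1.743 and 0.025, and so changed sign under centring and ribosomal protein scaling. With the mitochondrial scaling the differences of Tfrc (-1.44), Dppa3 (-0.21), Tob1 (-0.09), Pdia3 (-0.66), Hsd17b7 (-0.46), Lamp2 (-0.59), Cdc73 (-0.32) and Rbms1 (-0.02) changed sign, while the 3141 calls between nucleus and membrane compare with 6307. Calls against 60 min numbered 516 with centring and 5680 with the mitochondrial scaling, and those against 240 min 414 with centring and 78 with ribosomal protein scaling.

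Without 1 replicate, higher genes ranged from 681 to 976, lower genes from 2381 (without replicate 3) to 2801, build-up genes from 140 (without replicate 2) to 205, reverse genes from 90 (without replicate 2) to 114, and calls between nucleus and membrane from 3661 (without replicate 3) to 4481. Interaction calls were 0 or 1. With at least 100 recovered reads at 0 min, 2566 genes were lower, 44 had the reverse pattern, 4041 differed between nucleus and membrane, 546 and 726 changed against 60 and 240 min, and the median difference was -0.161. With at least 10 mean reads 288 and 401 changed against 60 and 240 min, and with the trend on reads 639 and 789. Listing in 2 of 3 libraries gave 83 and 72. With a pseudocount of 0.1 there were 80 against 60 min, and with 1 there were 64 and 630, and a median of -0.086. The fit to 24 libraries, which took the spread from all of them and held 11232 genes, gave 56 reverse genes.

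Nuclear and cytosolic libraries of equal replicate number shared little deviation from their group means, with correlations of 0.003, 0.040 and 0.026. Such values cannot tell whether these libraries came from the same culture, so a pairing is not excluded. With the replicate number as a block 1437 genes were higher and 3620 lower, 290 built up, 135 had the reverse pattern, 5303 differed between nucleus and membrane, and 16 and 93 changed against 60 and 240 min. Of 128 named genes 126 kept their direction and call under the block, 121 with centring, 122 with ribosomal protein scaling and 86 with the mitochondrial scaling.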
